A study of Homo sapiens with 4 samples.

Results

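Integrins are cell surface receptors, each built of an alpha and a beta chain, that hold a cell to its matrix and pass signals across the membrane. Laminins are secreted proteins of basement membranes, each a trimer of an alpha, a beta and a gamma chain, and they are ligands of several integrins. In dermal fibroblasts the known integrin set is dominated by receptors that share the beta1 chain, with alphaV receptors beside them, and fibroblasts also secrete laminin chains. The integrin and laminin subunit genes were described here in fibroblasts in which the forkhead transcription factor FOXA2 was switched on. They were all rows of the expression table whose gene symbol is ITGA with a number or V, ITGB with a single digit, or LAMA, LAMB or LAMC with a single digit. This rule found 34 of the 63651 rows, or 32 of 56620 symbols, since ITGA10 and LAMA4 each have a further row on a patch scaffold.

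The cells were BJ-5ta, a human foreskin fibroblast line immortalised with telomerase, in a clonal derivative with a doxycycline-inducible FOXA2 transgene. The labels give 2 samples treated with 0.5 µg/ml doxycycline, called induced here, and 2 uninduced samples without it, all in the same line and medium. An overnight mimosine treatment that stops cells in G1 is described without saying which cultures had it, the length of induction is not in the labels, and no cells with doxycycline but without the transgene were analysed here, so effects of the drug and of FOXA2 cannot be told apart. The table has 1 FPKM value per gene for each group (fragments corrected for transcript length and for the total mapped), each between a pair of deposited bounds, and none per sample. No spread between samples can therefore be given, and no p-value, SD or n stands beside any value.

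FOXA2 itself was at 104 FPKM (interval 50.2 to 158) in the induced column and 4.82 FPKM (0.526 to 9.12) in the uninduced column. Read depth is unknown because the table holds no counts. The FPKM summed to 482743 induced and 553536 uninduced, and 13915 rows reached 1 FPKM in the induced column and 13207 in the uninduced column. All 8 fibroblast markers examined were above 1 FPKM, with sums of 2809 FPKM induced and 4384 FPKM uninduced. They went both ways, 3 higher and 5 lower in the induced column, and VIM (905 FPKM induced, 2098 FPKM uninduced) made up most of the difference in the sum. Of the markers of other cells, KRT8 and KRT18 accounted for nearly all of the epithelial sum (135 FPKM induced, 240.2 FPKM uninduced). The other 6 epithelial markers were under 1 FPKM in both columns and went both ways. EPCAM (0.366 FPKM induced, 0 FPKM uninduced), KRT19 and CLDN4 were higher in the induced column, CDH1 and KRT14 lower, and KRT5 was listed at 0 in both. The 8 leukocyte markers summed to 3.94 FPKM induced and 1.45 FPKM uninduced. PTPRC (1.30 FPKM induced, 0.547 FPKM uninduced) and CD14 (2.15 FPKM induced, 0.823 FPKM uninduced) reached 1 FPKM only in the induced column. CD3E was listed at 0 in both, and the rest were under 1 FPKM and also higher in the induced column. The endothelial, platelet, neural and muscle lists each stayed under 1 FPKM in sum in both columns. Their part in the results was not tested.

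Of the 34 rows, 23 reached 1 FPKM in at least 1 column and enter the counts below: 11 integrin alpha chains, 3 integrin beta chains and 9 laminin chains. In the induced column 19 of them were at 1 FPKM or more, and in the uninduced column 22 were. ITGA10 passed only through the induced column, and ITGA7, ITGA8, ITGA11 and LAMA1 passed only through the uninduced column, so these 5 had to differ in that direction. Just inside the limit lay ITGA7 (0.740 FPKM induced, 1.10 FPKM uninduced) and LAMA1 (0.735 FPKM induced, 1.61 FPKM uninduced). Just outside lay ITGB4 (0.926 FPKM induced, 0.148 FPKM uninduced), ITGB8 (0.563 FPKM induced, 0.198 FPKM uninduced) and LAMA3 (0.549 FPKM induced, 0.499 FPKM uninduced).

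No member passed the criterion used for a call, that the deposited intervals of both columns do not overlap: 0 of 23 were called higher, against 0.726% of the 14319 rows at 1 FPKM or more, and 0 of 23 were called lower, against 0.454%. At shares this small a count of 0 among 23 rows is near the background. By size alone, 2 of 23 (ITGA1 and LAMB1) were at least 2-fold higher in induced cells on the FPKM + 1 scale, against 9.2% of all such rows. By the same rule 3 of 23 (ITGA2, ITGA3 and ITGA8) were at least 2-fold lower, against 6.03%, with the direction of ITGA8 fixed by the filter. The median log2 difference, induced minus uninduced on log2(FPKM + 1), which understates low genes, was -0.12 over the 23 members and 0.05 over all 14319 rows. Over the members with any value above 0, with no filter, the median was 0.05, against 0.04 over all such rows. Because the columns have unequal sums, scaling both to the same sum moved the median over all rows to 0.23 and that of the members to 0.07. In bulk RNA, fewer cells of a type and less RNA per cell cannot be told apart.

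The members' directions are given by family, beside all 14319 rows at 1 FPKM or more, of which 7693 were above 0 and 6626 below. With equal sums 9377 of those rows were above 0, and after quantile normalization 7025 were. Of the 9 laminin chains, 6 were higher in the induced column and 3 lower, with a median log2 difference of 0.31 (0.50 with both columns scaled to the same sum, 0.37 after quantile normalization). Beside the counts over all rows, 6 of 9 is near the background. Of the 14 integrin chains, 4 were higher and 10 lower, with a median of -0.28 that came to -0.13 with equal sums, where 6 were higher, and to -0.25 after quantile normalization. These counts include the 5 rows whose direction the filter fixed: ITGA10 among the higher integrins, ITGA7, ITGA8 and ITGA11 among the lower ones and LAMA1 among the lower laminins. Summed over all rows of the family, the laminins came to 561 FPKM induced and 416 FPKM uninduced, a ratio of 1.35, and the integrins to 1055 FPKM induced and 1509 FPKM uninduced, a ratio of 0.699. Summed over the whole table the ratio was 0.872. ITGB1 alone (445 FPKM induced, 769 FPKM uninduced) made up most of the integrin difference. Neither family's counts nor its sum was tested, since a column holds a single value per gene.

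**Figure D1:**
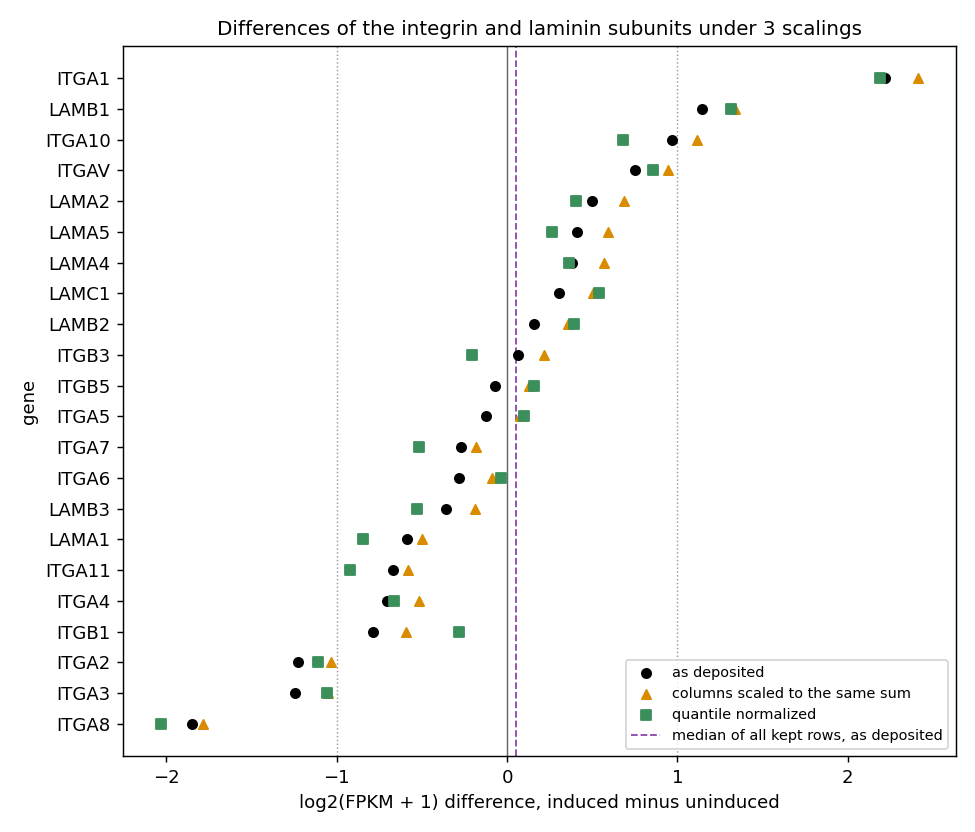
Log2 difference of FPKM + 1 (horizontal axis, induced minus uninduced) for 22 integrin and laminin rows at 1 FPKM or more, as deposited (circles), with both columns scaled to the same sum (triangles) and after quantile normalization (squares); dotted lines mark a 2-fold difference and the dashed line the median of all rows, 0.05. ITGA1 and LAMB1 lie past the upper dotted line and ITGA2, ITGA3 and ITGA8 past the lower one under all 3 scalings, ITGA10 passes the upper one only with equal sums, and ITGA5, ITGB5 and ITGB3 change sign between scalings.

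Members of high level matter for this comparison, because the median over all rows depends on level. Of the 11 members with a mean of 30 FPKM or more, 1 was at least 2-fold higher and 2 at least 2-fold lower, with a median of -0.12. Over all 4280 rows at that level the median was -0.19, with 5.68% at least 2-fold higher and 7.22% at least 2-fold lower. The 11 members with a mean of 1 to 30 FPKM had a median of 0.06, against 0.14 over 9451 rows. In both ranges the members' median lay within 0.1 of that of all rows at the same level.

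The collagen-binding alpha chains, which carry an inserted I domain and pair with beta1, differed most among themselves. ITGA1, the alpha1 chain of a receptor for collagen IV and other collagens, was at 43.7 FPKM (0 to 135) induced and 8.61 FPKM (0 to 52.8) uninduced. This is a log2 difference of 2.22, higher than that of 98.4% of all rows at 1 FPKM or more, yet both intervals start at 0 and overlap. ITGA2, the alpha2 chain, whose receptor favours fibrillar collagens such as collagen I, was at 36.6 FPKM (5.37 to 67.8) induced and 87.0 FPKM (33.2 to 141) uninduced, a log2 difference of -1.23. Among members with lower bounds above 0, ITGA2 came nearest to separated intervals, the induced upper bound being 2.04 times the uninduced lower bound. The level of ITGA1 was 1.19 times that of ITGA2 in induced cells and 0.0990 times that of ITGA2 in uninduced cells.

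ITGA1 (ENSG00000213949) and ITGA2 (ENSG00000164171) lie side by side on chromosome 5, and the table gives both, with PELO, a ribosome rescue factor gene, the same hg19 span of 51971027 to 52390609. PELO was at 24.2 FPKM induced and 21.4 FPKM uninduced, and the rows of the span summed to 104 FPKM induced and 117 FPKM uninduced. Summed, ITGA1 and ITGA2 came to 80.3 FPKM induced and 95.6 FPKM uninduced, so the opposite differences of the neighbours largely offset each other. How the quantification divided fragments among the genes of a shared span was not tested. ITGA1 and ITGA2 are both on the plus strand. In other spans, overlapping genes on opposite strands cannot be separated without strand either.

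The other collagen receptors were near the limit of 1 FPKM. ITGA10, the alpha10 chain known mainly from cartilage, was at 2.75 FPKM (0 to 5.81) induced and 0.915 FPKM (0 to 2.05) uninduced, a log2 difference of 0.97. ITGA11, the alpha11 collagen receptor chain of fibroblasts and other mesenchymal cells, was at 0.685 FPKM (0 to 2.10) induced and 1.68 FPKM (0 to 4.68) uninduced. All 4 intervals of these genes begin at 0. The collagen-binding class as a whole came to 83.7 FPKM induced and 98.2 FPKM uninduced.

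The laminin-binding alpha chains all had the lower value in the induced column as deposited, with overlapping intervals, but only for ITGA3 was the difference large. ITGA3, the alpha3 chain that binds laminins with an alpha5 or alpha3 chain, was at 60.5 FPKM (11.4 to 109.6) induced and 145 FPKM (30.3 to 259) uninduced, a log2 difference of -1.24. Its row (ENSG00000005884, chromosome 17, 48133332 to 48167845 in hg19) shares its span with no other row at 1 FPKM or more. ITGA6, the alpha6 chain, which pairs with beta1 or with the hemidesmosome chain beta4, was at 90.7 FPKM (8.60 to 173) induced and 110.5 FPKM (35.5 to 185) uninduced. Its log2 difference of -0.28 shrank to -0.09 with equal sums and -0.03 after quantile normalization, so no direction is given for it. ITGA7, a laminin receptor chain best known from muscle that passed the filter only through the uninduced column, was at 0.740 FPKM (0 to 4.09) induced and 1.10 FPKM (0 to 5.74) uninduced. The class sum was 152 FPKM induced and 256 FPKM uninduced, a ratio of 0.593, and ITGA3 made up most of that difference. With ITGB4 at 0.926 FPKM induced and 0.148 FPKM uninduced, transcripts of the beta4 partner of ITGA6 were under 1 FPKM in both columns.

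The alpha chains that bind the RGD motif of fibronectin, vitronectin and latent TGF-beta each showed a different pattern. ITGA5, the alpha5 chain of the classical fibronectin receptor, was at 132 FPKM (55.2 to 209) induced and 144 FPKM (59.0 to 229) uninduced. Its log2 difference of -0.12 became 0.07 with both columns scaled to the same sum and 0.10 after quantile normalization, so no direction is given for it. ITGAV, the alphaV chain, was at 67.4 FPKM (19.9 to 115) induced and 39.6 FPKM (10.6 to 68.5) uninduced, a log2 difference of 0.75. ITGA8, a receptor chain for nephronectin known from mouse kidney development, was at 0.419 FPKM (0 to 1.35) induced and 4.11 FPKM (0 to 8.76) uninduced. At a log2 difference of -1.85 ITGA8 was the lowest of all members, and its FPKM was 9.80 times as high in uninduced as in induced cells. Its row (ENSG00000077943, chromosome 10, 15555948 to 15762124) shares its span with no other row at 1 FPKM or more. ITGA4, the alpha4 chain that binds VCAM1 and a fibronectin segment outside the RGD site, was at 25.4 FPKM (10.4 to 40.4) induced and 42.0 FPKM (19.3 to 64.7) uninduced, a log2 difference of -0.70.

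**Figure D2:**
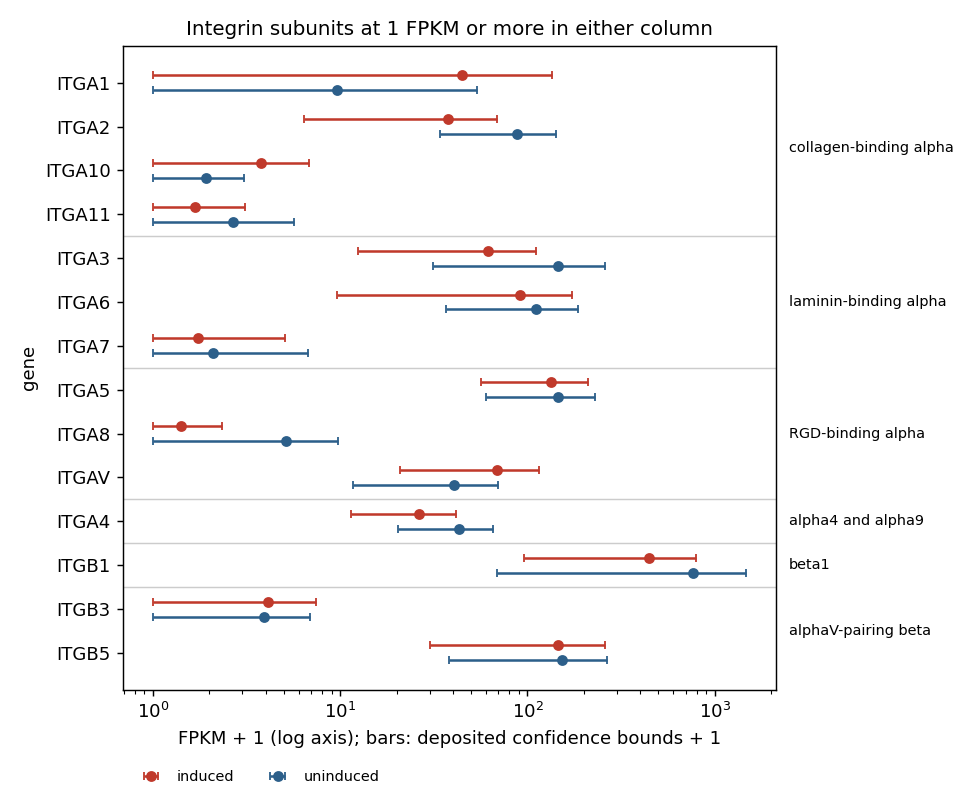
FPKM + 1 on a log axis (horizontal) for each integrin row at 1 FPKM or more in either column, grouped by class, with the induced point above the uninduced point of the same gene and bars for the deposited intervals (a bound of 0 lies at 1). ITGB1 has the highest level in both columns, and the bars of every gene overlap between columns.

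The beta chains were led by ITGB1, the shared partner of most alpha chains above, at 445 FPKM (95.3 to 794) induced and 769 FPKM (67.5 to 1471) uninduced. Its log2 difference was -0.79, or -0.59 with equal sums and -0.28 after quantile normalization. ITGB5, which pairs with alphaV in a vitronectin receptor, was at 144 FPKM (29.2 to 259) induced and 152 FPKM (37.3 to 266) uninduced. ITGB3, the alphaV partner also found with alphaIIb in platelets, was at 3.11 FPKM (0 to 6.46) induced and 2.93 FPKM (0 to 5.93) uninduced. The small differences of both took the opposite sign under at least 1 scaling: ITGB5 went above 0 under equal sums (0.13) and quantile normalization (0.16), and ITGB3 below 0 under quantile normalization (-0.21). The remaining beta chains were under 1 FPKM in both columns: the leukocyte chains ITGB2 and ITGB7, the epithelial chains ITGB4 and ITGB6, and the alphaV partner ITGB8. FPKM of ITGB1 was 0.965 times the FPKM summed over the alpha chains under the naming rule in induced cells. In uninduced cells ITGB1 was 1.32 times that sum. The sum leaves out alpha chains outside the rule, ITGAE among them (15.6 FPKM induced, 40.4 FPKM uninduced).

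The order of the alpha chains under the naming rule, without ITGAE, differed between columns, though few neighbours in either order were separated. In induced cells ITGA5 was highest, then ITGA6, ITGAV, ITGA3, ITGA1, ITGA2, ITGA4, ITGA10, ITGA7, ITGA11 and ITGA8. Only ITGA4 and ITGA10 among these 10 neighbour pairs had separate intervals. In uninduced cells the order was ITGA3, ITGA5, ITGA6, ITGA2, ITGA4, ITGAV, ITGA1, ITGA8, ITGA11, ITGA7 and ITGA10, and 0 of 10 neighbour pairs were separated. For the beta chains the order was ITGB1, ITGB5 and ITGB3 in both columns, and in both the intervals of ITGB5 and ITGB3 were separate while those of ITGB1 and ITGB5 were not.

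Shares were taken of the FPKM summed over the alpha chains under the naming rule, without ITGAE, 461 induced and 584 uninduced. The RGD-binding class held 43.4% in induced cells and 32.1% in uninduced cells. The laminin-binding class held 33.0% induced and 43.9% uninduced. The collagen-binding class kept a close total, 18.2% induced and 16.8% uninduced, with ITGA1 at 9.47% induced and 1.47% uninduced and ITGA2 at 7.93% induced and 14.9% uninduced. ITGAV held 14.6% of the induced sum and 6.78% of the uninduced sum, and ITGA3 held 13.1% of the induced and 24.8% of the uninduced sum. The shares of ITGA5 (28.7% induced, 24.7% uninduced) and ITGA6 (19.7% induced, 18.9% uninduced) lay closer together. These shares carry the wide intervals of the single values and have no test.

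**Figure D3:**
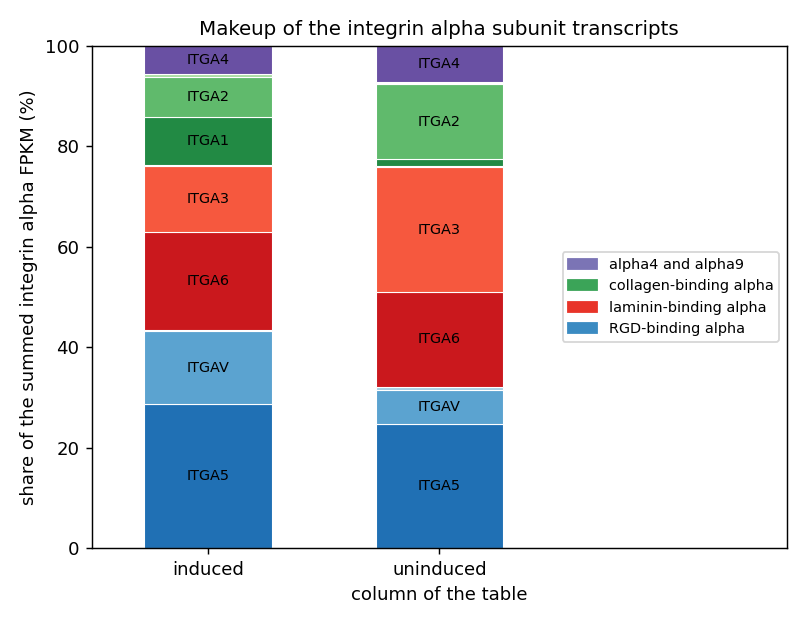
Share of the summed integrin alpha FPKM (vertical axis, percent) held by each chain in the induced and the uninduced column, coloured by ligand class. The sum covers chains under the naming rule and leaves out ITGAE. RGD-binding chains held 43.4% of the induced sum and 32.1% of the uninduced sum, and laminin-binding chains 33.0% of the induced and 43.9% of the uninduced sum.

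Among the laminin alpha chains, which carry the main integrin-binding domain, LAMA4 was the highest. LAMA4, the alpha4 chain typical of mesenchymal and vascular basement membranes, was at 29.9 FPKM (4.68 to 55.2) induced and 22.8 FPKM (3.22 to 42.4) uninduced. LAMA2, the alpha2 chain of muscle and nerve basement membranes, was at 17.2 FPKM (0 to 36.6) induced and 11.8 FPKM (4.49 to 19.2) uninduced. LAMA5, the alpha5 chain widespread in adult basement membranes, was at 10.3 FPKM (0 to 30.1) induced and 7.52 FPKM (0 to 25.95) uninduced. The log2 differences of these 3 lay between 0.38 and 0.50, and LAMA4 was 2.89 times LAMA5 in induced cells and 3.03 times LAMA5 in uninduced cells. LAMA1, the alpha1 chain of embryonic basement membranes, was at 0.735 FPKM (0 to 1.78) induced and 1.61 FPKM (0.0463 to 3.17) uninduced. LAMA3, the epithelial alpha3 chain, was under 1 FPKM in both columns.

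LAMB1, LAMB2 and LAMC1 stood above every laminin alpha chain in both columns. LAMB1, the beta1 chain present in most laminins of the mesenchyme, was at 139 FPKM (15.7 to 263) induced and 62.6 FPKM (15.4 to 109.8) uninduced. Its log2 difference of 1.14 was the largest of the laminins. Like every laminin chain at 1 FPKM or more, it kept its sign under every scaling and pseudocount tried. LAMB2, the alternative beta2 chain of synaptic and glomerular basement membranes, was at 131 FPKM (4.26 to 258) induced and 117 FPKM (4.77 to 229) uninduced. LAMB1 was 1.07 times LAMB2 in induced cells and 0.535 times LAMB2 in uninduced cells. LAMC1, the gamma1 chain shared by most laminins, was the highest laminin in both columns, at 224 FPKM (0 to 493) induced and 181 FPKM (0 to 375) uninduced. The row of LAMB1 (ENSG00000091136, chromosome 7, 107531415 to 107643700 in hg19) shares its span with DLD, a subunit gene of mitochondrial dehydrogenases, which was at 53.7 FPKM induced and 73.3 FPKM uninduced.

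LAMB3, the beta3 chain of the laminin in epithelial anchoring structures, was low, at 6.51 FPKM (0 to 14.5) induced and 8.64 FPKM (0 to 18.2) uninduced. Its log2 difference was -0.36. In the order of levels LAMC1 came first, then LAMB1, LAMB2, LAMA4, LAMA2, LAMA5, LAMB3 and LAMA1 in induced cells. In uninduced cells LAMB2 stood above LAMB1 and LAMB3 above LAMA5. No neighbours in either order had separate intervals. By chain type, the alpha chains summed to 58.7 FPKM induced and 44.3 FPKM uninduced, and the beta chains to 277 FPKM induced and 188 FPKM uninduced.

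**Figure D4:**
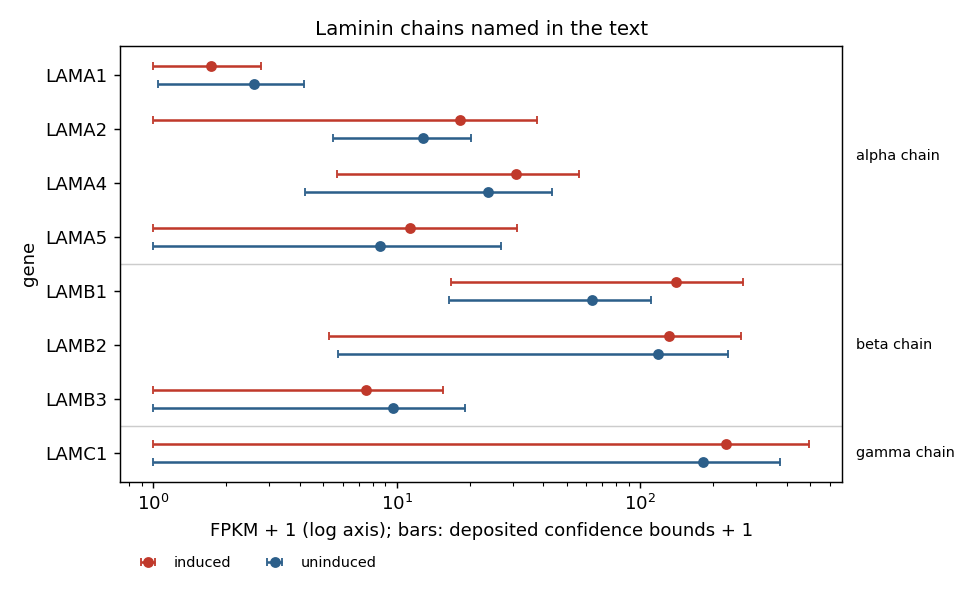
FPKM + 1 on a log axis (horizontal) for 8 laminin rows at 1 FPKM or more in either column, grouped by chain type, with the induced point above the uninduced point and bars for the deposited intervals. LAMC1, LAMB1 and LAMB2 lie above the alpha chains in both columns, and the bars of every gene overlap between columns.

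The 11 rows under 1 FPKM in both columns were the scaffold copies of ITGA10 and LAMA4, listed at 0 in both, and 9 others. These were ITGA9, ITGB2, ITGB4, ITGB6, ITGB7, ITGB8, LAMA3, LAMB4 and LAMC3, at 0.00400 to 0.926 FPKM induced and 0 to 0.499 FPKM uninduced. All 9 were higher in the induced column, each with a lower bound of 0 in both columns. The share of all rows under 1 FPKM with that direction is not given here, so it is not read as a result about the 9. Over all rows the median log2 difference was 0.14 at a mean of 1 to 30 FPKM and -0.19 at 30 FPKM or more.

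The width of the intervals limits every comparison above. Of the 23 members, 12 had a lower bound of 0 in the induced column and 10 in the uninduced column, against 50.2% (induced) and 50.8% (uninduced) of all rows at 1 FPKM or more. By non-overlap, a row with such a bound in the induced column cannot be called higher, and one in the uninduced column cannot be called lower. The median distance from value to upper bound was 108% of the value induced and 95.9% uninduced over the members. Over all rows it was 99.97% induced and 101% uninduced. The tightest members were ITGA5 in the induced column at 58.3% and ITGA4 in the uninduced column at 54.1%. Of the 23, 12 share their span in the table with another row at 1 FPKM or more, both 2-fold higher ones among them. Of the 11 with a span of their own, 0 were at least 2-fold higher and 2 (ITGA3 and ITGA8) at least 2-fold lower, against 9.51% and 6.16% of the 7757 rows with a span of their own. At those shares 0 of 11 is near the background. The direction of ITGA8 was fixed, since it passed the filter only through the uninduced column, and 2 of 11 was not tested.

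Promoter sequences are shown for the genes with the largest differences that had an entry in the RefSeq promoter table (GRCh38.p14), with ITGA10, the member with most forkhead matches at 1 FPKM or more, beside them. Each is the 250 bases before the annotated start, read 5′ to 3′ on the gene's strand: ITGA1 at chr5:52787666-52787915 (plus strand), ITGA2 at chr5:52989102-52989351 (plus), ITGA8 at chr10:15719923-15720172 (minus), LAMB1 at chr7:108003162-108003411 (minus) and ITGA10 at chr1:145910051-145910300 (minus). ITGA3 had no entry. Capitals mark matches on either strand to the forkhead core TGTTTNC, the motif type FOXA factors are known to bind, or to the GC box GGGCGG.
ITGA1: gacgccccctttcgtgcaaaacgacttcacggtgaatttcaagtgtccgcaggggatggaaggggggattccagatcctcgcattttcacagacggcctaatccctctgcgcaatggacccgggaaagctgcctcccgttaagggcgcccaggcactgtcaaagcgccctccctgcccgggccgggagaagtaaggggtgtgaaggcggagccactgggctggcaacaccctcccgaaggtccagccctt
ITGA2: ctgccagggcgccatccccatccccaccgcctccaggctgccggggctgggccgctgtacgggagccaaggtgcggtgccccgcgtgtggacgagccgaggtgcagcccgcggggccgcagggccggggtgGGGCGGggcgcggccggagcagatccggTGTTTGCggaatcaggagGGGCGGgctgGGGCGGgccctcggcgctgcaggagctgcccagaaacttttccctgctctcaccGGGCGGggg
ITGA8: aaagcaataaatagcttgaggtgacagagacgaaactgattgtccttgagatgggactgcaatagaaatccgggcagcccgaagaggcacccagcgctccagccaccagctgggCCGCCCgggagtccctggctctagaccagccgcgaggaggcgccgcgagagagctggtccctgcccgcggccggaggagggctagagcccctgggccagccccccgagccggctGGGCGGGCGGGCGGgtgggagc
LAMB1: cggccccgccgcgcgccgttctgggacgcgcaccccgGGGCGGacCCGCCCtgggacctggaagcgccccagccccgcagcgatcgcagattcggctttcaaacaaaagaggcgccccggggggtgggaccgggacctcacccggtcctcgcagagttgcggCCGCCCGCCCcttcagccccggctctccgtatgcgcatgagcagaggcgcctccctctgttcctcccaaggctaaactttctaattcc
ITGA10: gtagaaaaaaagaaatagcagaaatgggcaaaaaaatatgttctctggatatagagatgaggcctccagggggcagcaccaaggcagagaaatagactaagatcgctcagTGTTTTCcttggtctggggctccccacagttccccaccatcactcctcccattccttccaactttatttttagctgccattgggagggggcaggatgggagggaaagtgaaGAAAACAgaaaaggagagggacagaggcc

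The ITGA1 window holds neither motif. The ITGA2 window holds 1 forkhead core, 91 bases before the start, and 4 GC boxes. ITGA8 and LAMB1 hold 4 GC boxes each and no forkhead core, while ITGA10 holds 2 forkhead cores, 140 and 29 bases before the start, and no GC box. Of 32 symbols 23 had an entry, with 30 windows in all. The forkhead core occurred in 3 of these 30 windows (ITGA2, ITGA10 and LAMB4), against 15.5% of all 35116 windows of the same length, and the GC box in 16 of 30, against 42.6%. A match describes letters in a window and does not show binding.

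The partners of these genes were read by the same rules. Adaptors link integrin tails to actin and signalling, and the list of 34 adhesion adaptor genes also held membrane proteins such as CD9 and CAV1. Of the 34, 31 reached 1 FPKM and 0 were called in either direction. Of the 31, 0 were at least 2-fold higher (9.2% of all rows) and 3 at least 2-fold lower (6.03% of all rows). The median was -0.05. With equal sums 2 were at least 2-fold higher and the median was 0.15, and after quantile normalization 1 was and the median was 0.09. Of all 14319 rows, 1785 were at least 2-fold higher with equal sums and 1012 after quantile normalization. The 3 lower genes were CAV1, the caveolae coat protein (224 FPKM induced, 634 FPKM uninduced), the focal adhesion scaffold PXN (69.5 FPKM induced, 170.4 FPKM uninduced) and ITGB1BP1, which binds the beta1 tail (51.3 FPKM induced, 105 FPKM uninduced). The tetraspanin CD9, a lateral integrin partner, was at 207 FPKM induced and 104 FPKM uninduced, and the actin crosslinker ACTN4 at 325 FPKM induced and 542 FPKM uninduced. The intervals of all these genes overlap between columns.

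Of 27 integrin ligand genes, 22 reached 1 FPKM, 0 were called, 6 were at least 2-fold higher (9.2% of all rows) and 3 at least 2-fold lower (6.03% of all rows), with 11 differences above 0 and 11 below. Of these, ICAM1, POSTN and TGFB3 passed the filter only through the induced column and SPP1 only through the uninduced column, so their directions were fixed. With a mean of at least 5 FPKM, 3 of 18 were at least 2-fold higher, beside 712 of 10483 rows. The median of -0.11 was 0.09 with equal sums, 0.02 after quantile normalization, 0.05 with no filter and -0.41 with a mean of at least 5 FPKM. Among those higher in induced cells were ICAM1, a ligand of leukocyte integrins (6.26 FPKM induced, 0.717 FPKM uninduced), the fibrillar collagen COL3A1 (445 FPKM induced, 125 FPKM uninduced) and the matricellular ligand POSTN (3.32 FPKM induced, 0.343 FPKM uninduced). FN1, fibronectin, was the ligand with the highest mean level, at 2111 FPKM (0 to 6229) induced and 863 FPKM (0 to 2373) uninduced, and COL1A2 the next at 519 FPKM induced and 756 FPKM uninduced. TNC, tenascin C, was at 31.7 FPKM (9.13 to 54.2) induced and 114 FPKM (42.0 to 186) uninduced. TNC was the only partner gene past a less strict criterion, in which the interval of the difference must exclude 0. By that criterion 180 of all 14319 rows were higher and 159 lower, so a single gene over these lists is near the background.

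Of 26 basement membrane genes that bind or accompany laminins, 20 reached 1 FPKM, 0 were called, 5 were at least 2-fold higher (9.2% of all rows) and 1 at least 2-fold lower (6.03% of all rows). With equal sums 8 were at least 2-fold higher, beside 1785 of all 14319 rows. Among the 8 was FRAS1 (1.96 FPKM induced, 0.610 FPKM uninduced), which passed the filter only through the induced column, so its direction was fixed. The median of 0.25 was 0.44 with equal sums, 0.38 after quantile normalization, 0.03 with no filter and 0.11 with a mean of at least 5 FPKM. Those higher were SDC2, a heparan sulphate receptor (214 FPKM induced, 61.0 FPKM uninduced), AGRN, agrin, which binds the laminin coiled coil (135 FPKM induced, 50.1 FPKM uninduced), the collagen IV chains COL4A6 (19.3 FPKM induced, 8.04 FPKM uninduced) and COL4A5 (37.7 FPKM induced, 16.5 FPKM uninduced), and NTN4, a netrin that binds laminin gamma1 (94.7 FPKM induced, 45.97 FPKM uninduced). The nidogens, which tie laminin gamma1 to the collagen IV network, pointed opposite ways. NID2 was at 19.1 FPKM induced and 54.7 FPKM uninduced, and NID1 at 115 FPKM induced and 63.9 FPKM uninduced. SPARC, a collagen-binding matrix protein and the highest of the list, was at 1063 FPKM induced and 1029 FPKM uninduced.

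Of 7 other integrin-related genes outside the naming rule, 2 reached 1 FPKM. ITGAE, the alphaE chain known from intraepithelial lymphocytes, was at 15.6 FPKM (0 to 35.4) induced and 40.4 FPKM (3.47 to 77.4) uninduced, in a span it shares with GSG2. ITGBL1, a secreted protein related to beta chains, was at 60.3 FPKM (22.3 to 98.2) induced and 46.3 FPKM (18.1 to 74.5) uninduced. The leukocyte alpha chains ITGAD, ITGAL, ITGAM and ITGAX and the platelet chain ITGA2B were under 1 FPKM in both columns.

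**Figure D5:**
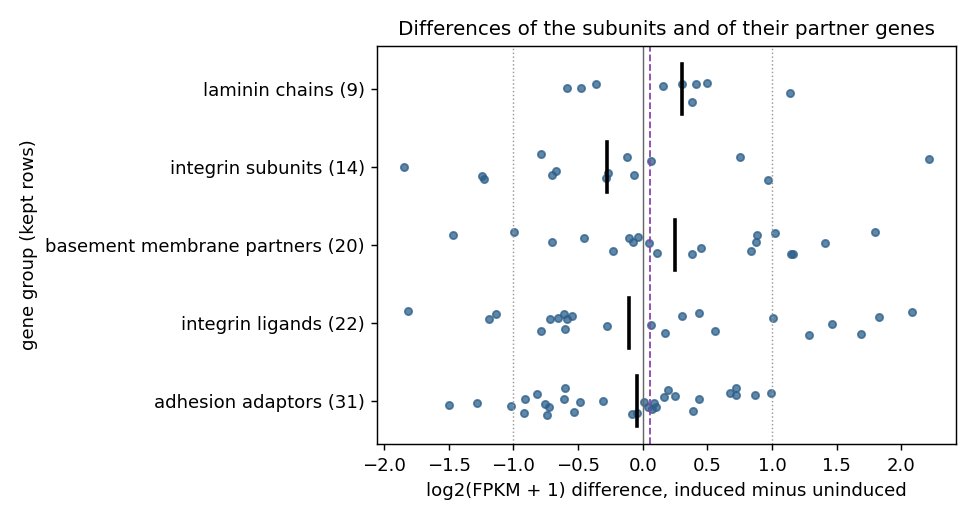
Log2 difference of FPKM + 1 (horizontal axis, induced minus uninduced) for each gene at 1 FPKM or more among the laminin chains, the integrin subunits and 3 partner lists, with a black bar at the median of each group, dotted lines at a 2-fold difference and a dashed line at the median of all 14319 rows, 0.05. The medians are 0.31 for the laminin chains, -0.28 for the integrin subunits, 0.25 for the basement membrane genes, -0.11 for the integrin ligands and -0.05 for the adhesion adaptors, all as deposited; those of the adaptors and ligands lie above 0 with equal sums or quantile normalization.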

How the data were processed

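RNA was taken with RNeasy columns, and TruSeq libraries without strand were sequenced on a HiSeq instrument, per the labels' protocols. TopHat and hg19 are named in the submitters' processing notes. The sources used here do not give the tool's version, the quantifier, any pooling or the intervals' level. Deposited values are FPKM with lower and upper bounds, per the file headers. A further 3 value columns could be matched to no labelled sample and were not used. The table gives 1 value per group, so the planned limma fit, which needs values per sample, could not be run. Instead a row counted as called when the deposited intervals did not overlap, and as at least 2-fold by FPKM + 1. Rows at 1 FPKM or more in at least 1 column (14319) were kept, of which 3 had malformed bounds and were never called. No member was among them.

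All members entered the counts, sums and medians, and the values of 1 laminin chain are not reported here. From the 4 partner lists the rule took called genes, otherwise up to 4 with the largest differences and the 2 of highest mean. COL4A5, NTN4, NID1, TGFB3, SPP1, VIM, PELO and DLD were named after their values were seen. The members and lists were chosen with earlier results of these data known. Table starts were counted from 0 and are printed from 1. Alternatives were other filters, scalings, pseudocounts and call criteria. Python 3.11.15, pandas 2.3.3 and numpy 2.4.6 were used. The criterion was run on simulated data built from the deposited interval widths. That simulation held no spread between samples, so it cannot tell how the criterion performs against such spread.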

Additional observations from a re-analysis of the deposited data

How the results depend on the processing

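No member was called under any filter, scaling or call criterion tried. For non-overlap of the intervals this was partly fixed in advance. The 12 members with an induced lower bound of 0 cannot be called higher, the 10 with an uninduced lower bound of 0 cannot be called lower, and scaling leaves a bound of 0 at 0. Of members at least 2-fold higher there were 2 as reported, 3 with equal sums or a pseudocount of 0.1 or 0.01, and 0 without rows that share a span, an alternative chosen after seeing the data that leaves 11 rows. Of members at least 2-fold lower there were 3 as reported and 5 with either smaller pseudocount. There were 2 of 16 with a mean of at least 5 FPKM and 2 of 11 without shared spans. Over all rows with a span of their own, 9.51% were higher and 6.16% lower by that rule. The added rows were ITGA10 on the higher side and ITGA11 and LAMA1 on the lower side. Each had passed the filter only through the column where it is higher, so these directions were fixed. The members' median log2 difference of -0.12 moved to 0.051 with no filter, 0.045 with a mean of at least 5 FPKM, 0.073 with equal column sums and -0.48 without shared spans. Over all rows, the median of 0.05 moved to -0.019 with a mean of at least 5 FPKM, 0.23 with equal sums and -0.011 after quantile normalization. The 1317 of 14319 rows at least 2-fold higher became 712 of 10483 with a mean of at least 5 FPKM. They became 1785 with equal sums, 1012 after quantile normalization, 1972 with a pseudocount of 0.1 and 2032 with 0.01. The 863 of 14319 rows at least 2-fold lower became 660 of 10483 with a mean of at least 5 FPKM. They became 624 with equal sums, 980 after quantile normalization, 1091 with a pseudocount of 0.1 and 1123 with 0.01. The calls (104 higher, 65 lower) became 180 and 159 when the interval of the difference had to exclude 0. The cause of these moves was not tested. Only ITGA5, ITGB5 and ITGB3 took another sign, under scaling.

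No paired analysis was possible because each group has 1 value per gene and none per sample. For the same reason, fits leaving out each sample in turn were not run. Read depth is unknown, and intervals that start at 0 limit most low genes.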
